A study of Mus musculus with 194 samples.

Results

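The genes described here are 9 receptors and granule-associated genes of killer lymphocytes: Klrd1, Klrc1, Klrk1, Klrg1, Gp49a, Lilrb4, Nkg7, Ctsw and Samd3. All 9 were found by symbol among the 23420 rows of the expression table. They were chosen by values measured in these same CD8+ T-cells, namely the share of cells and lineages that expressed them, the likeness of sister and cousin cells, and their relation to Gzmb, which encodes granzyme B. Those values are therefore given as a description without tests, and only the time since the last division, which was not used in the choice, was tested for these genes.

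The series held 194 single-cell libraries. The CD8+ T-cells were primary cells of C57BL/6J mice that had been activated for 30 h with plate-bound antibody against CD3 at 5 μg per ml and soluble antibody against CD28 at 2 μg per ml, and were then grown in a microfluidic trap device with IL2 at 100 U per ml. The L1210 cells (88 libraries) belong to a mouse lymphocytic leukemia line of the strain DBA subline 212 and were grown in the same device without activation. Imaging recorded which cells were sisters or cousins and when each had last divided, and every cell was released as 1 Smart-Seq2 library, a method that amplifies cDNA of polyadenylated RNA. The labels name no mouse, culture or device run, so a lineage, the progeny of 1 founding cell, was the unit of comparison. Whether lineages of one mouse are more alike could not be asked.

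Doublets and libraries with fewer than 1000 genes above 0 TPM were left out, which kept 97 CD8+ T-cells in 34 lineages and 81 L1210 cells in 26 lineages. On the CD8+ side 4 doublets and 5 libraries with too few genes were left out. The retained CD8+ T-cells had 2639 to 10905 detected genes with a median of 6862, and the L1210 cells 1610 to 10454 with a median of 8402. No CD8+ library lay near the limit, since the best library left out had 714 detected genes. Among the CD8+ T-cells, 27 lineages had 2 or more cells and gave 43 sister pairs and 72 cousin pairs, beside 4541 pairs of unrelated cells. The other 7 were single cells without a sister or cousin label. Each was counted as a lineage of its own and as unrelated to all others, though the labels do not show this. TPM, a share of all transcripts scaled to a common total, corrects for transcript length, so levels of different genes can be compared but the number of reads behind a value is unknown. A value of exactly 0 can be a transcript lost in preparation as well as one that was not made, and is called listed at 0. Markers of the labelled cell types were present. Cd3d and Cd3e were above 0 TPM in 97 of 97 CD8+ T-cells and Cd8a in 94, whereas the summed level of 6 B-lineage markers ranged from 0 to 283 TPM (median 2.67 TPM) over the CD8+ T-cells and from 323 to 3512 TPM over the L1210 cells.

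Cytotoxic T-cells share many surface receptors with natural killer (NK) cells. Klrd1 encodes CD94, which pairs with NKG2A, the product of Klrc1, to form an inhibitory receptor for the non-classical class I molecule Qa-1, and Klrk1 encodes NKG2D, an activating receptor for stress-induced ligands of the RAE-1, H60 and MULT1 families that signals through the adaptor DAP10 (Hcst). KLRG1 is an inhibitory receptor for cadherins found on terminally differentiated effector cells. Gp49a and Lilrb4 are neighbouring members of the gp49 family of immunoglobulin-like receptors, of which Lilrb4 (gp49B) carries inhibitory motifs in its cytoplasmic tail and gp49A does not. NKG7 is a membrane protein of cytotoxic granules and cathepsin W, the product of Ctsw, is a cysteine protease of cytotoxic lymphocytes. Granzyme B is the serine protease that these granules deliver to target cells.

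In the GENCODE annotation of GRCm38, the build of the files, the 4 lectin-like receptor genes lie on chromosome 6. Klrd1 (chr6:129591782-129598775, plus strand), Klrk1 (chr6:129610323-129623864, minus strand) and Klrc1 (chr6:129666015-129678973, minus strand) are neighbours, and Klrg1 (chr6:122270596-122282882, minus strand) lies apart from them. Gp49a (chr10:51480632-51486703) and Lilrb4 (chr10:51490956-51496611), listed there as Lilr4b and Lilrb4a, follow each other on the plus strand of chromosome 10, which also holds Samd3 (chr10:26229707-26272172, plus strand). Nkg7 lies at chr7:43437073-43438249 on the plus strand, Ctsw at chr19:5465043-5468507 on the minus strand and Gzmb at chr14:56258838-56262260 on the minus strand.

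The coding sequences of Gp49a and Lilrb4 are so alike that reads of one could be assigned to the other. Over 907 aligned bases they were 96.03% identical, and 35.7% of the 30-base stretches of the Gp49a coding sequence also occurred in that of Lilrb4. Only coding bases aligned without a gap were searched for differences. The aligned stretch of 90 coding bases (bases 212 to 301 of each) with the most differences is shown, with the 11 differing bases in capitals.
Gp49a: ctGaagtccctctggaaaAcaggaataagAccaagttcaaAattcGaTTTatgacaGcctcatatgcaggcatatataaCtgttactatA
Lilrb4: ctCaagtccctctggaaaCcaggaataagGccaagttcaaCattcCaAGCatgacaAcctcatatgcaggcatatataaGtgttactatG
It is followed by 126 bases without any difference. Klrc1 and Klrc2, the gene of the activating partner NKG2C, were 82.8% identical over 714 coding bases, and 50.2% of the 30-base stretches of Klrc1 transcripts occurred in Klrc2 transcripts. Levels of Gp49a, Lilrb4 and Klrc1 are uncertain to this extent. The other members shared at most 0.0292% of their stretches with another gene. Lilrb4 also shares 1846 exon bases with a readthrough transcript, Gm49339, and 131 with an antisense gene, Gm40645, neither of which is a row of the table.

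Promoters are shown for Klrk1 and Samd3, whose levels went together over lineages, for Gzmb, to which all members were compared, and for Nkg7, which was expressed in every cell. The 250 bases before each RefSeq start were taken from RefSeq (GRCm38.p6), which held entries for 5 of the 9 members. Capitals mark the core of RUNX sites, TGTGGT, and the half-site of T-box factors, GGTGTGA, each searched on both strands. None of the marked sites overlap.
Klrk1 (chr6:129623865-129624114, minus strand): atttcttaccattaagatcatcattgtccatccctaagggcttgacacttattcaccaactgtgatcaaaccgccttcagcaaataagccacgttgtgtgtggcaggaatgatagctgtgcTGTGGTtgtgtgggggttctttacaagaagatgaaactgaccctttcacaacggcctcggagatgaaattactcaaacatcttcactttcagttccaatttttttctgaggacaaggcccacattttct
Samd3 (chr10:26229457-26229706, plus strand): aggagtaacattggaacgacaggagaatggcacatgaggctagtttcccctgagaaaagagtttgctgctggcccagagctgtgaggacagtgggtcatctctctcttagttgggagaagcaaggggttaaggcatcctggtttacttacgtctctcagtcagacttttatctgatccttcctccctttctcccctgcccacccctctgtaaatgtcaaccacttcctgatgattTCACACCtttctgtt
Gzmb (chr14:56262335-56262584, minus strand): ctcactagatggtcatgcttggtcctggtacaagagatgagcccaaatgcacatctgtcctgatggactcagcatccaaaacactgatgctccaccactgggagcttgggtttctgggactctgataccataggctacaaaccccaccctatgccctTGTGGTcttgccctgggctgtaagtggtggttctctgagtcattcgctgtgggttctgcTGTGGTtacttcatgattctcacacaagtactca
Nkg7 (chr7:43436888-43437137, plus strand): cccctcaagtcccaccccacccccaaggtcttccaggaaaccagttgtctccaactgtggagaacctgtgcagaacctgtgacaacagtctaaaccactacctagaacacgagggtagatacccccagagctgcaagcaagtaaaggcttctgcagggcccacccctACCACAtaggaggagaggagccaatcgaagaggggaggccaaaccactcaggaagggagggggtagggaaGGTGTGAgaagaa
The Gzmb window held 2 RUNX cores and that of Klrk1 and Nkg7 1 each, while Nkg7 and Samd3 each held 1 T-box half-site. Of the windows not shown, that of Klrc1 held 1 RUNX core and no T-box half-site, and that of Gp49a held neither. Over 32851 promoter windows of the same length, 14.05% held the RUNX core and 3.33% the T-box half-site, and a match of letters is not evidence of binding.

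The lectin-like receptors differed widely in how many CD8+ T-cells listed them. Klrd1 was above 0 TPM in 69 of 97 cells, or 71.1% (exact 95% interval 61.05 to 79.9%, which covers counting error only), with a median of 47.9 TPM over all cells and a highest value of 581 TPM. Klrk1 was above 0 TPM in 44 cells (45.4%, interval 35.2 to 55.8%), with a median of 24.4 TPM among these and a highest value of 240 TPM. Klrc1, the partner chain of CD94, was above 0 TPM in 19 cells (19.6%, interval 12.2 to 28.9%) with a median of 17.7 TPM among these. Klrg1 was listed at 0 in all 97 cells, which allows a share of cells with a value above 0 TPM of up to 3.09% by counting error alone and sets no limit on cells whose transcripts were lost.

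Whole lineages were high or low in Klrd1. In the lineage of CD8_71 the 4 cells had 342, 581, 222 and 47.8 TPM, and in that of CD8_25 they had 579, 381, 365 and 162 TPM. The lineage of CD8_9 had 327, 513 and 230 TPM in its 3 retained cells, none of which had Gzmb above 0.84 TPM. At the other end, 1 of 4 cells in each of the lineages of CD8_59 and CD8_65 had Klrd1, at 15.3 and 7.92 TPM, and neither cell of the lineage of CD8_49 did. These lineages were picked from both ends, and others lay between, such as that of CD8_55 with a highest value of 89.9 TPM and 2 of 4 cells at 0. Of the 27 lineages with 2 or more cells, 15 had Klrd1 above 0 TPM in every cell, 11 in some and 1 in none.

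Klrc1 and Klrk1 were found in fewer lineages. Klrc1 was above 0 TPM in 10 of 34 lineages and, in the 27 lineages with 2 or more cells, never in every cell. Its highest levels were in the lineage of CD8_83, with 0, 33.3, 142 and 68.9 TPM, and in the 3 retained cells of another lineage, CD8_92, CD8_93 and CD8_94, with 112, 0 and 17.7 TPM. Cells listed at 0 thus occurred beside the highest sisters and cousins. Klrk1 was above 0 TPM in every cell of 6 of the 27 lineages, in some cells of 12 and in no cell of 9. It had 161, 120, 49.1 and 32.4 TPM in the lineage of CD8_83 and 240, 184 and 238 TPM in CD8_92 to CD8_94. The lineages of CD8_51, CD8_55, CD8_59, CD8_65 and CD8_71, with 4 cells each, had none.

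The cells with Klrc1 were nested within those with Klrd1, which was not particular to this pair. All 19 cells with Klrc1 also had Klrd1, whereas 19 of the 69 cells with Klrd1 (27.5%) had Klrc1. Likewise 42 of the 44 cells with Klrk1 had Klrd1, which is 95.5% of the cells with Klrk1 and 60.9% of those with Klrd1. Klrd1 was also found in 27 of the 28 cells with Gp49a, 31 of the 32 with Samd3 and 32 of the 38 with Lilrb4. Its share over all 97 cells was 71.1%. Among the 53 cells listed at 0 for Klrk1, 2 had Klrc1, against 17 of the 44 cells with Klrk1.

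The highest levels of Gp49a were held by 2 lineages. It was above 0 TPM in 28 of 97 cells (28.9%, interval 20.1 to 38.95%) and in 17 of 34 lineages. The lineage of CD8_83 had 113, 160, 54.2 and 112 TPM, and CD8_92, CD8_93 and CD8_94 had 85.5, 64.6 and 67.8 TPM. In the other 90 cells, 21 were above 0 TPM, and the highest, CD8_99, had 39.2 TPM. The 7 cells of the 2 lineages therefore lay above every other cell. The same 7 cells were above 0 TPM for Klrd1, Klrk1 and Lilrb4, and had 2078 to 5687 TPM of Gzmb with a median of 2447 TPM, against a median of 557 TPM in the other 90 cells. Both lineages were picked out by their Gp49a values, so the contrast is a description. Their Nkg7 (median of 821 TPM) was close to that of the other cells (808 TPM).

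Lilrb4, the inhibitory neighbour, was above 0 TPM in 38 cells (39.2%, interval 29.4 to 49.6%) and in 20 of 34 lineages, with a highest value of 268 TPM in CD8_93. The 4 cells of the lineage of CD8_83 had 118, 125, 105.3 and 14.8 TPM of Lilrb4, and CD8_92 to CD8_94 had 120, 268 and 34.5 TPM. Outside these lineages CD8_1 and its cousin CD8_4 had 191 and 105.97 TPM with Gp49a listed at 0. Of the 47 cells with either gene, 19 had both, 9 Gp49a alone and 19 Lilrb4 alone, so the overlap was 67.9% of the cells with Gp49a and 50% of those with Lilrb4. Gp49a made up a median of 48.9% of the summed TPM of the pair in the 7 cells with the highest Gp49a, between 19.4 and 88.3%. In the 40 other cells with either gene, which include the 19 with Lilrb4 alone, the median was 16.2%. A larger share in the 7 cells was built in, since they were picked by their Gp49a.

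The granule genes were expressed almost throughout. Nkg7 was above 0 TPM in 97 of 97 cells, from 8.79 TPM to 7801 TPM with a median of 808 TPM, and was the highest of the 9 genes. Ctsw was above 0 TPM in 96 cells with a median of 324 TPM and a highest value of 1218 TPM. The exception was CD8_34, which was also the retained cell with the fewest detected genes. Samd3, for which no role is stated here, was above 0 TPM in 32 cells (32.99%, interval 23.8 to 43.3%) and in 17 of 34 lineages. Among lineages with 2 or more cells its highest mean levels were in that of CD8_1, with 479, 84.8, 84.7 and 43.98 TPM, followed by that of CD8_25, with 44.2, 13.5, 86.9 and 15.4 TPM, so that every cell of both lineages had Samd3. None of the 4 cells in the lineage of CD8_1 had Gp49a.

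**Figure D1:**
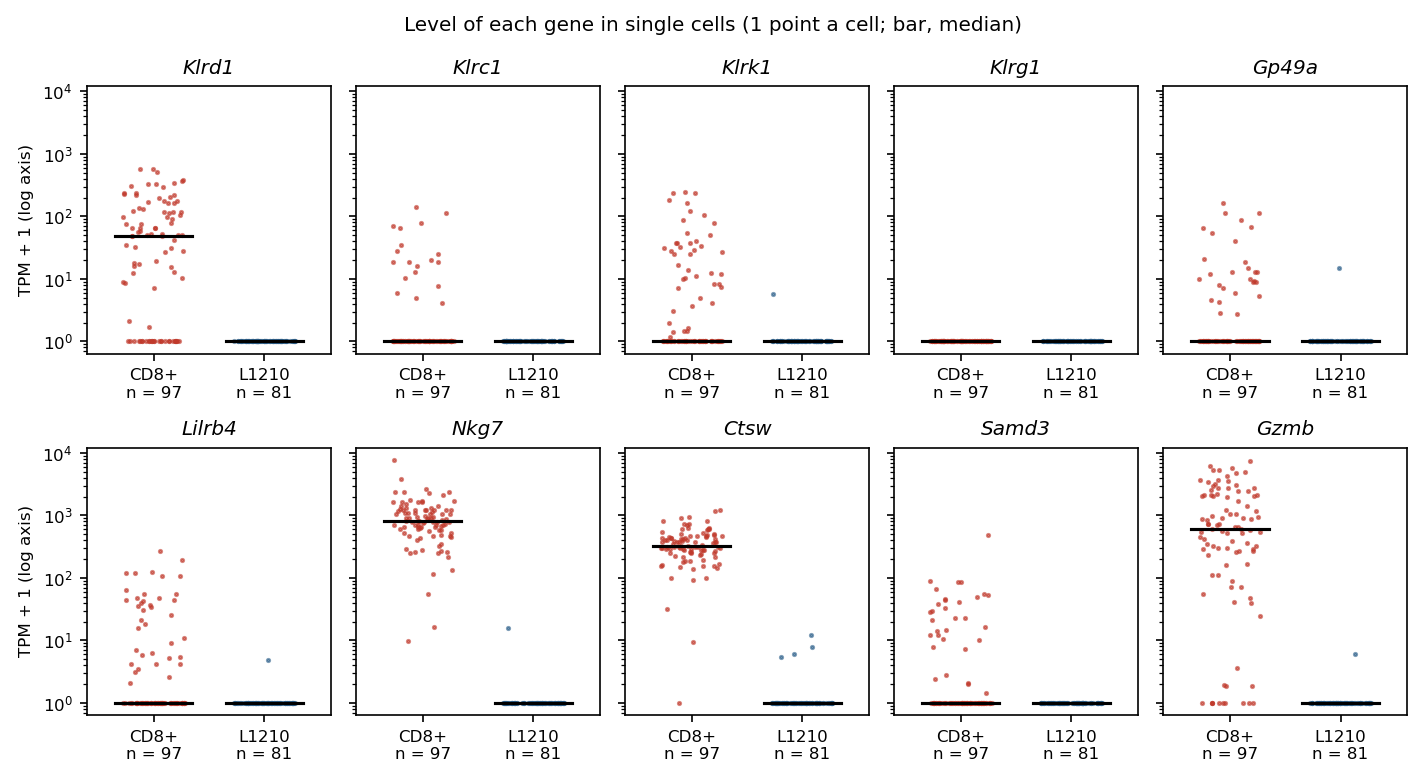
Level of each member and of Gzmb in single cells, as TPM + 1 on a log axis, with 1 point per cell and a bar at the median (97 CD8+ T-cells, 81 L1210 cells). Nkg7 and Ctsw were high in nearly every CD8+ T-cell, the other members were listed at 0 in many, Klrg1 in all, and L1210 cells lay almost entirely at 0.

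L1210 cells gave the background. Klrd1, Klrc1, Klrg1 and Samd3 were listed at 0 in all 81 cells, which in the same sense allows up to 3.70%. Klrk1 (4.77 TPM), Gp49a (13.9 TPM), Lilrb4 (3.87 TPM) and Nkg7 (14.5 TPM) were each above 0 TPM in 1 cell, and Ctsw was in 4 cells with at most 11.03 TPM. The highest L1210 value of Nkg7 was below the level of all but 1 of the CD8+ T-cells, CD8_58 with 8.79 TPM. No test was made between the cell types, since neither has a labelled animal or culture.

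Averaged over pairs, sister and cousin cells were closer to each other than unrelated cells for all 8 members that were expressed. This is the likeness they were chosen by. Likeness was measured as the absolute difference in ln(TPM + 1) between cells of a pair. For Klrd1 it averaged 1.45 between sisters, 1.47 between cousins and 2.51 between unrelated cells. For Gp49a these averages were 0.58, 0.70 and 1.27, and for Klrk1 they were 1.05, 1.11 and 1.83. Samd3 had 0.88, 0.71 and 1.51, and Lilrb4 1.09, 1.06 and 1.74. Cousins were about as close as sisters for these genes. Nkg7, with 0.70, 0.77 and 0.94, and Klrc1, with 0.82, 0.72 and 1.04, differed less between pairs of each kind. Ctsw hardly differed at all, with 0.76, 0.72 and 0.79. With 1 value per lineage, Ctsw had 0.81 between sisters and 0.80 between unrelated cells, so its sisters were not closer. As a ratio of sisters to unrelated cells, Gp49a had 0.45, Klrk1 0.57, Klrd1 and Samd3 0.58, Lilrb4 0.62, Nkg7 0.75, Klrc1 0.79 and Ctsw 0.97. The median of the 9997 genes tested was 0.91 and Gzmb had 0.44. Of all genes, 0.160% had a lower ratio than Gp49a and 65.8% a lower one than Ctsw.

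The spread over lineages was large beside these differences. With 1 value per lineage, the difference between relatives was smaller than that of the same cells to other lineages by 1.25 ± 0.94 for Klrd1 (SD, n = 27 lineages), and the relatives were closer in 24 of the 27. For Gp49a it was smaller by 0.68 ± 0.93 (SD, n = 27) and closer in 20. Without the 2 lineages of highest Gp49a, an alternative chosen after seeing the data, the mean difference was -0.21 for Gp49a, -0.25 for Klrk1 (-0.63 with them), -0.39 for Lilrb4 (-0.69 with them) and -0.19 for Klrc1 (-0.30 with them). For Ctsw it was smaller by 0.05 ± 0.49 (SD, n = 27).

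**Figure D2:**
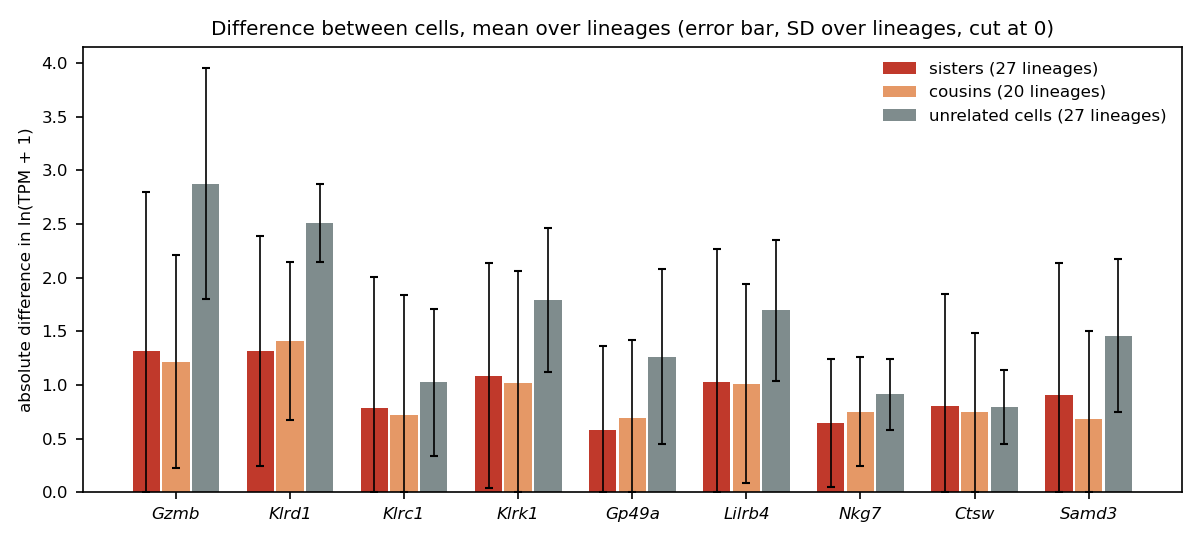
Absolute difference in ln(TPM + 1) between sisters, cousins and unrelated cells for Gzmb and the 8 members expressed in CD8+ T-cells. Bars are means over lineages (27 with sisters, 20 with cousins) and error bars the SD over lineages, cut at 0. Sisters and cousins lay below unrelated cells for Klrd1, Klrk1, Gp49a, Lilrb4 and Samd3, and the bars of Ctsw were nearly level.

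Sisters often differed in whether a receptor was listed at 0. Of the 43 sister pairs, 24 had Klrd1 above 0 TPM in both cells, 12 in 1 cell and 7 in neither. For Klrk1 these counts were 12, 14 and 17, for Gp49a 7, 10 and 26, and for Samd3 8, 11 and 24. Where either sister had Gp49a, both had it in 41.2% of pairs, against 15.95% of unrelated pairs. The pairs with both include those of the 2 lineages of highest Gp49a, in which every retained cell had it. This share was not computed without them. For Klrc1 this share was 21.4% in sisters, 40.9% in cousins and 9.83% in unrelated pairs, from only 3 sister pairs with both.

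Over all genes, 1289 of 9997 tested (12.9%) differed between lineages by limma's moderated F-test at a Benjamini-Hochberg adjusted p under 0.05. Of the 8 members that passed the filter on low values, 7 were among them and Ctsw was not. Likeness within lineages chose these genes, so the count is not a result about them.

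**Figure D3:**
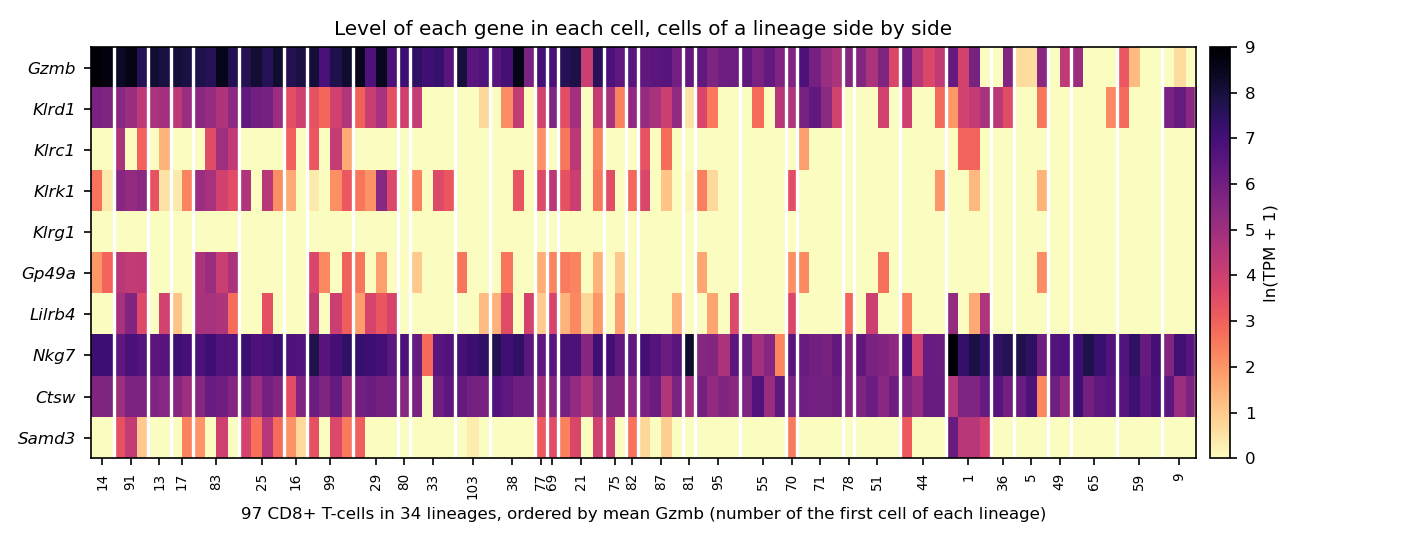
Level of Gzmb and of the 9 members as ln(TPM + 1) in each of the 97 CD8+ T-cells, with the cells of a lineage side by side and the 34 lineages ordered by their mean Gzmb. The lineage named 91 is that of CD8_92 to CD8_94. Gp49a is darkest in the lineages 83 and 91, and Klrd1 in 9, 14, 25, 69 and 71. The lineages 49, 65, 59 and 9 at the right end, with the least Gzmb, have no Klrk1, Klrc1 or Gp49a. Others with little Gzmb have some, such as lineage 1 with Klrc1 up to 17.5 TPM and lineage 5 with Gp49a up to 7.81 TPM.

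The receptors and Samd3 were higher where Gzmb was higher. Over the 34 lineage means of ln(TPM + 1), the Spearman correlation with Gzmb was 0.64 for Klrk1 (Pearson r = 0.55), 0.42 for Klrd1 (r = 0.39), 0.40 for Gp49a (r = 0.41), 0.36 for Klrc1 (r = 0.33), and 0.35 for both Lilrb4 (r = 0.36) and Samd3 (r = 0.30). It was 0.12 for Nkg7 (r = -0.04) and -0.28 for Ctsw (r = -0.38). Without the 2 lineages of highest Gp49a the rank correlation was 0.30 for Gp49a and 0.23 for Klrc1. The median over the 9996 other genes was 0.12, and 70.5% of them were positive, so a positive sign alone says little. For Klrk1, 79 genes (0.790%) had a higher correlation, for Klrd1 9.87% and for Lilrb4 16.2%. The relation to Gzmb was among the values that chose the members, so these shares are a description and not a test. Without the 2 lineages farthest from the median of Gzmb, those of CD8_9 and CD8_59, the correlation was 0.60 for Klrk1 (r = 0.53), 0.52 for Klrd1 (r = 0.54), 0.35 for Gp49a (r = 0.39), 0.27 for Lilrb4 (r = 0.30), 0.33 for Klrc1 (r = 0.31), 0.29 for Samd3 (r = 0.23), 0.09 for Nkg7 (r = -0.07) and -0.21 for Ctsw (r = -0.28).

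The number of detected genes moved with these levels to differing degrees. Over the 34 lineages it had a Spearman correlation of 0.44 with Gzmb, 0.45 with Klrk1, 0.46 with Samd3, 0.48 with Lilrb4, 0.31 with Gp49a, 0.23 with Klrc1 and 0.20 with Klrd1, and of -0.12 with both Nkg7 and Ctsw. When every gene was replaced by its residual on detected genes, the correlation with Gzmb was 0.49 for Klrk1 and 0.36 for Klrd1, but 0.20 for Gp49a, 0.15 for Lilrb4, 0.10 for Samd3 and 0.09 for Klrc1. The points share libraries and the same total of TPM. The part of detected genes in the relation was not tested further.

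None of the 10 cells listed at 0 for Gzmb had Klrc1, Klrk1 or Gp49a, while 1 had Lilrb4, 1 had Samd3 and 5 had Klrd1. All 10 had Nkg7, with a median of 942 TPM, and Ctsw, with a median of 612 TPM. The medians in the 87 cells with Gzmb were lower, at 808 and 312 TPM. The lineages of CD8_59 and CD8_65, with the highest mean Ctsw, had Gzmb in only 2 and 1 of their 4 cells. They gave several of the 10 cells, which are therefore not independent values of Ctsw. The median of detected genes was 5836.5 in cells listed at 0 for Gzmb and 7109 in cells with it. Its part in the absence of the receptors was not tested. Counted over Klrd1, Klrc1, Klrk1, Gp49a and Lilrb4, 19 cells had none of the 5 receptors, and their median of Gzmb was 39.98 TPM. The 11 cells with all 5 came from 5 lineages and had a median of 2219 TPM of Gzmb. The median of detected genes was 5778 in the former and 8951 in the latter.

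**Figure D4:**
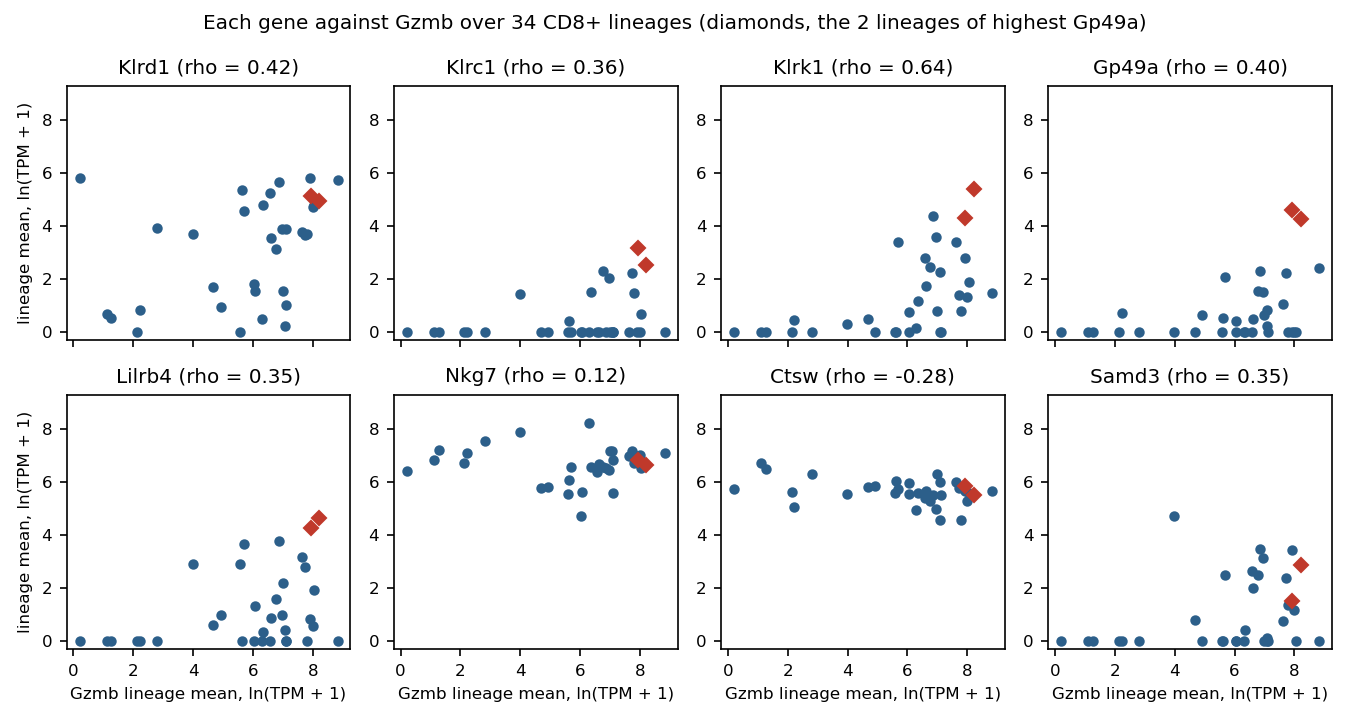
Lineage means of ln(TPM + 1) of the 8 members expressed in CD8+ T-cells against that of Gzmb, 1 point for each of the 34 lineages, with Spearman's rho. Diamonds mark the 2 lineages of highest Gp49a, which also lie at the top for Klrc1 and Lilrb4. Klrk1 was higher where Gzmb was higher, and lineage means of Nkg7 and Ctsw stayed between 4.56 and 8.24.

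Among the members themselves, Klrk1 and Samd3 were most alike over lineages by rank, with a Spearman correlation of 0.70 (Pearson r = 0.63, n = 34 lineages). Klrk1 with Lilrb4 gave 0.58 (r = 0.67) and with Gp49a 0.57 (r = 0.73), and Gp49a with Lilrb4 gave 0.55 (r = 0.70), where reads can be shared. By Pearson's r these 3 pairs stood above Klrk1 with Samd3. The 2 lineages of highest Gp49a, those of CD8_83 and of CD8_92 to CD8_94, also ranked 2 and 1 for Lilrb4. For Klrk1 they ranked 3 and 1. These correlations were not computed without them. Detected genes had a correlation of 0.45 with Klrk1, 0.46 with Samd3 and 0.48 with Lilrb4, and their part here was not tested. Klrk1 with Klrd1 gave 0.50 (r = 0.55). Nkg7 and Ctsw had a correlation of 0.16 with each other. Ctsw was lower where Klrk1 was higher, with -0.36 (r = -0.25), and had -0.21 with Klrc1 and -0.29 with Samd3.

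The genes most like each member over the 97 cells, by Spearman's rho among genes past the filter, differed from member to member. Many of these cells are sisters or cousins within the 34 lineages, so they are not independent values. The part of detected genes in these correlations was not tested. For Klrk1 they were Gzmb (0.66), Tubb6 (0.65), a tubulin, and Mt1 (0.61), a metallothionein. For Samd3 they included Eomes (0.68), a T-box transcription factor of effector and memory CD8+ T-cells, and Ly6c2 (0.66), a surface antigen of memory-phenotype T-cells. Klrc1 was most like Klrc2 (0.68), with which it can share reads, then Smpdl3b (0.50) and Lrrk1 (0.48). Klrc2 and Smpdl3b were each above 0 TPM in only 12 cells. Gp49a was most like Fosl1 (0.53), an AP-1 factor, Lrrk1 (0.53) and Gzmb (0.52). Lilrb4 was most like Ly6c2 (0.51), Mt1 (0.49) and Il2rb (0.47), the β chain of the IL-2 receptor. Klrd1 was most like Nip7 (0.50), Klrk1 (0.49) and Exosc2 (0.47), where Nip7 and Exosc2 act in ribosomal RNA processing. Nkg7 was most like Trappc2l (0.61), Cd52 (0.60) and Lgals1 (0.59), and Ctsw most like Laptm5 (0.53), Tmem66 (0.51) and Vps25 (0.48).

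Few other genes of the receptor families were found in many cells. Of 25 other killer-cell lectin-like receptor genes in the table, 17 were above 0 TPM in at least 1 CD8+ T-cell, and 3 passed the filter on low values. Klra7, which encodes a Ly49 receptor, was above 0 TPM in 14 cells with a highest value of 496 TPM, and Klre1, a further NK-cell lectin, in 16 cells with at most 144 TPM. Both differed between lineages in the test over all genes, which called 12.9%, and Klrc2, above 0 TPM in 12 cells, did not pass it. Of 12 other LILR and paired immunoglobulin-like receptor genes, 6 were found in CD8+ T-cells and none of the 3 tested differed between lineages. Pilrb1 was above 0 TPM in 59 cells, Pilra in 39 and Pilrb2 in 25.

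Of the adaptors, Hcst (DAP10), the partner of NKG2D, was above 0 TPM in 73 of 97 cells with a median of 29.4 TPM, whereas Tyrobp (DAP12) was in 2 cells and Fcer1g in 1. The T-cell kinase gene Lck and the adaptor gene Sh2d2a were each found in 96 cells and Cd247, the CD3 ζ chain, in 95. Among 11 adaptor and signalling genes tested, Sh2d1a (SAP) and Vav1 differed between lineages, where 12.9% of all genes did. Of the ligands, H2-T23, the gene of Qa-1, was above 0 TPM in 96 of the activated cells (median of 131 TPM) and in all 81 L1210 cells with a median of 311 TPM. Ulbp1, the gene of the NKG2D ligand MULT1, was above 0 TPM in 51 CD8+ T-cells and 56 L1210 cells. It alone among 6 ligand genes tested differed between CD8+ lineages. The counts for adaptors and ligands are near the share of all genes and are not a result about these lists. Of 9 other receptors shared by NK and T cells that were tested, Cd160, Crtam, Slamf6, Lag3 and Pdcd1 differed between lineages. Cd160 was above 0 TPM in 62 cells and had a Spearman correlation with Gzmb of 0.54 over lineages, and Slamf6 one of -0.48.

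Among effector and memory-phenotype genes, 9 of 13 tested differed between lineages, including Eomes, Tbx21, Il2rb and Id2. Of 12 cytotoxic granule genes tested, Gzmb, Srgn, Lamp1 and Fasl did, and of 11 naive T-cell genes 5 did, including Ccr7, Tcf7, Klf2 and S1pr1. Over lineages the correlation with Gzmb ran from -0.03 for Cxcr3 to 0.54 for Il2rb among the 13 effector and memory-phenotype genes tested, and from -0.54 for Ccr7 and Tcf7 to 0.13 for Il7r among the 11 naive T-cell genes. These counts stand beside the 12.9% called over all genes, and the lists were drawn up with earlier results of these data known.

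Markers of NK cells were looked for because most of the receptors are also NK-cell genes. Ncr1, which encodes NKp46 and defines the NK lineage, was listed at 0 in all 97 cells, and Klrb1c was above 0 TPM in 1. Klra7 and Klri2 were above 0 TPM in 14 and 13 cells, and Klra4 and Klra8 in 4 each. At least 1 of the 6 markers was above 0 TPM in 27 cells, and their summed level was between 0 and 496 TPM in CD8+ T-cells and between 0 and 2.86 TPM in L1210 cells. Of the cells with Klrk1, 20 of 44 had a marker, against 7 of the 53 others. Cd3e was above 0 TPM in all 97 cells, so its presence cannot set cells with a receptor apart from others. Its median was 489 TPM in the cells with Klrk1 and 571 TPM in all 97. Of the 9 myeloid and mast-cell markers, looked for because these cells are known to express gp49 receptors, the summed level in CD8+ T-cells was at most 12.4 TPM with a median of 0, and Cd4 was at most 1.81 TPM.

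Time since division was the measure that had no part in the choice of genes. The labels give it for 94 of these 97 cells, and 31 lineages had a mean time between 0.5 and 9.39 h with a median of 3.99 h. The slope of each gene's lineage mean of ln(TPM + 1) on this time was tested with limma over all genes, 2-sided. None of the 8 members changed with time at a Benjamini-Hochberg adjusted p under 0.05, where 9 of 9997 genes (0.0900%) did, 4 rising and 5 falling. At an unadjusted p under 0.05, 1 of the 8 members and 1294 genes (12.9%) passed.

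That member was Klrd1, which was lower in lineages longer after division by 0.28 ± 0.13 per hour (slope -0.28, SE 0.13, 95% interval -0.55 to -0.02, limma, unadjusted p = 0.0343, adjusted p = 0.342, n = 31 lineages). It did not pass the adjusted threshold. Its adjusted p ranged from 0.255 to 0.554 over the alternatives. For Klrk1 the slope was -0.12 (interval -0.35 to 0.10, adjusted p = 0.665) and for Lilrb4 0.10 (interval -0.11 to 0.32, adjusted p = 0.712). Without the 2 lineages of highest Gp49a the slope of Klrk1 was -0.21 (limma, unadjusted p = 0.0257, adjusted p = 0.319). For Klrc1, Gp49a, Nkg7, Ctsw and Samd3 the slope was between 0.00 and 0.03, with the widest interval for Samd3, from -0.19 to 0.22. The median slope of all genes was -0.03, and 68.3% of genes had a negative slope. The intervals are wide, so smaller changes with time could not have been seen for the receptors.

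**Figure D5:**
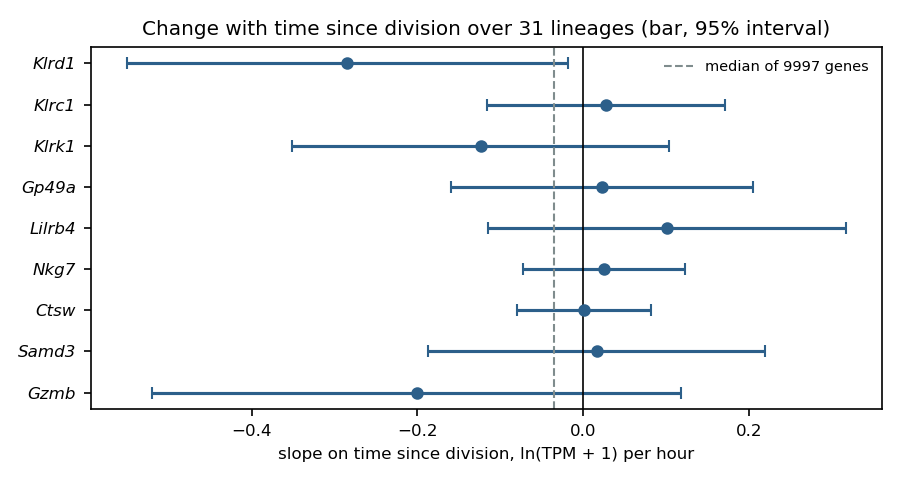
Slope of lineage means of ln(TPM + 1) on hours since division for the 8 members tested and Gzmb over 31 lineages, with 95% intervals and a dashed line at the median of 9997 genes. The interval of Klrd1 alone lies below 0, and its adjusted p is 0.342.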

How the data were processed

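Expression in each single-cell Smart-Seq2 library was estimated by the authors with RSEM over UCSC-annotated mouse genes (version 1.2.3 in the submitters' processing notes, which also name TopHat2, bcl2fastq, GenomeStudio and mm10). The deposited values are TPM per gene, not log-transformed, for 23420 rows and 194 libraries. In 27 rows the gene name had become a date, and 2 names stood on more than 1 row. TPM keeps no depth, so precision is set by the number of cells and lineages. No 2 libraries were identical.

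Doublets and libraries with fewer than 1000 genes above 0 TPM were left out. Lineages were assembled from the sister and cousin labels. Values were taken as ln(TPM + 1), and genes above 1 in more than 10% of the CD8+ T-cells were tested, which kept 9997. limma 3.58.1 (R 4.3.3) gave a moderated F-test of lineage over cells and a test of the slope on time since division over lineage means, with Benjamini-Hochberg adjustment at 0.05. The p values of the slope test cover the spread between lineages and not between mice. Those of the F-test set lineages against the spread between cells within a lineage, with sisters and cousins counted alike. The intervals of slopes use the residual degrees of freedom of the lineages. Shares have exact Clopper-Pearson 95% intervals, and a count of 0 allows 3 cells. On simulated data with 200 changed genes among the 9997, the F-test recovered 64.0% at an SD between lineages of 1 and 99.5% at 2, and 12.9% and 11.2% of its calls were unchanged genes, more than the 5% aimed at. The slope test recovered 75.5% at 0.3 per hour and 100% at 0.6, with 5.03% and 5.66% unchanged. The simulated data were made by shuffling the cells within each gene, which removes the likeness within lineages. Lineage means of genes alike within lineages vary more, so this recovery of slopes cannot be carried over to the receptors.

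The members, the gene lists and the tests were chosen with earlier results of these data known. Genes named are the 9 members, Gzmb, the 3 genes most correlated with each member, genes of the lists that were called or had the 3 highest shares of cells, and markers, beside the adaptors Hcst, Tyrobp and Fcer1g, named for their role after their values were seen. A few genes that this rule names are not reported here. Alternatives were the pseudocount, gene filter, minimum of detected genes, Rn45s (21.3% ± 8.54 of TPM in CD8+ T-cells, SD, n = 97 cells), detected genes, the test, the unit and the lineages used. Places come from GENCODE M21, and sequences from GENCODE transcripts and RefSeq. Shared 30-base stretches were counted over protein-coding transcripts, and coding sequences were aligned with Biopython 1.88. Python 3.11.15, numpy 2.4.6, pandas 2.3.3, scipy 1.17.1 and matplotlib 3.10.9 were used.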

Additional observations from a re-analysis of the deposited data

Results flagged for a closer look

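Signal was present in CD8+ libraries that the comparisons did not use, above the highest level in L1210 cells. In the 4 libraries labelled as doublets, Klrd1 was above 0 TPM in 4, with up to 313 TPM, and Nkg7 and Ctsw in 4 each, with up to 3667 and 947 TPM. Lilrb4 was above 0 TPM in 1 of them, at 31.2 TPM, and Klrc1, Klrk1, Gp49a and Samd3 were listed at 0 in all 4. Gzmb reached 20.9 TPM in these doublets. Among the 5 libraries with fewer than 1000 detected genes, Nkg7 was above 0 TPM in 1, CD8_12, at 6567 TPM, and the other members were listed at 0. The group sizes exceed 10 cells, so no single cell was tested for standing apart.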

How the results depend on the processing

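No member was called for time since division under any of 10 alternatives. The count of genes called for time was 9 and became 5 with a pseudocount of 0.1 TPM, 3 without a gene filter, 25 with at least 4000 detected genes (18 rising), 15 on residuals of detected genes (13 rising) and 23 with cells as the unit and lineage as a random term (14 rising), and the cause was not tested. The count of genes differing between lineages, 1289, ranged from 874 to 1825 over 10 alternatives. Of the members, 7 were called, 8 with at least 4000 detected genes, 5 by the Mann-Whitney U-test of pairs, and 6 without the 2 lineages of highest Gp49a, where Gp49a itself was no longer called. With genes required in more than 50% of cells 2 were called, Klrd1 and Nkg7, because 5 of the others failed that filter. Relatives were closer than unrelated cells for 8 members and the correlation with Gzmb was positive for 7 under every alternative run for them. For Klrc1, Gp49a, Lilrb4 and Samd3 that correlation fell by more than 0.18, the spread expected of a correlation over 34 lineages, on residuals of detected genes. Summing Gp49a and Lilrb4 gave a correlation of 0.44. Reads behind each value are unknown, which limits genes of low level most. No paired analysis was possible because the numbers that CD8+ and L1210 cells share only name cells. Kinship within CD8+ T-cells entered as the lineage.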
